A study of Rattus norvegicus with 4 samples.

Results

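The AP-1 transcription factors described here are 8 genes, Fos, Fosb, Fosl1, Fosl2, Jun, Junb, Jund and Atf3, out of 14217 genes named on the arrays. They were chosen by gene symbol: every probe set annotated to exactly 1 of these symbols was taken, which gave 14 of the 31099 probe sets. Smooth muscle cells from the aorta of Sprague-Dawley rats were cultured for 3 days with serum, kept for 3 days in serum-free medium and treated for 24 h. The 4 groups were IL-1b (interleukin-1b, an inflammatory cytokine, 2.5 ng/mL), its vehicle (0.1% bovine serum albumin and 10 mM acetic acid), PDGF-DD (a platelet-derived growth factor, 30 ng/mL) and its vehicle (0.01% bovine serum albumin). Each group was 1 sample on 1 Affymetrix rat array, so no difference below has a replicate check or a p-value, and the number of arrays limits the precision. No animal number is given in the labels, and all groups share the serum-free period before treatment.

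AP-1 is a dimer of basic leucine zipper proteins that binds DNA at short palindromic sites. Proteins of the JUN group (Jun, Junb, Jund) pair with each other or with proteins of the FOS group (Fos, Fosb, Fosl1, Fosl2), whereas FOS proteins need a JUN partner. Several of the genes are immediate early genes, which are transcribed for a short time after serum, growth factors or cytokines reach a resting cell, through MAP kinases. Fosl1 usually follows later and more lastingly. The RNA was taken 24 h after treatment, long after such a first wave, and they measure mRNA, not the phosphorylation or dimer choice that set AP-1 activity.

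Values are MAS5 intensities rescaled to a common trimmed mean, and a floor of 28.1, the 40th percentile of all intensities, stands for background. Where 1 array was at the floor, its floor value was used, and the fold is given as "at least". Differences of at least 2-fold are counted as called. Of the 14 member probe sets, 9 were above the floor on all 4 arrays and that of Fosl1 on 3. One probe set each of Fos and Atf3 was above it on 1 array and by little, and the probe set of Fosb and 1 of 3 for Jund were at or below it on every array. Fosb and, but for the PDGF-DD array, Atf3 therefore have no measured level. The share of probe sets above the floor was between 58.3% and 61.5% per array. All 8 smooth muscle markers looked up (among them Acta2, Myh11, Tagln and Cnn1) exceeded the floor on 1 or more arrays. Their summed intensity was 12031 with IL-1b and 35508 with its vehicle, and 8049 with PDGF-DD and 28002 with its vehicle. In such bulk RNA, fewer cells of a type and less RNA per cell cannot be told apart. Of 6 leukocyte markers on the array 4, including Ptprc, Cd68 and Csf1r, were at the floor on all arrays, as were 4 of 5 endothelial markers, including Pecam1 and Vwf, and 3 of 5 epithelial markers, including Cdh1. The sums over these lists were 1412, 1177, 1181 and 1277 for leukocyte markers (IL-1b, IL-1b vehicle, PDGF-DD and PDGF-DD vehicle arrays), of which Cd14 alone made 1333, 1121, 1117 and 1220. They were between 28.3 and 52.4 for endothelial markers and between 57.2 and 93.4 for epithelial markers. RNA integrity can be read from the actin control, whose 3' over 5' signal was 2.05 with IL-1b and 1.58 with its vehicle, and 1.37 with PDGF-DD and 1.26 with its vehicle, and its part in the results was not tested.

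The promoters of 5 of the 8 members are in the RefSeq table used here (assembly GRCr8). Those of Fosl1, Fosl2 and Junb are shown because IL-1b over its vehicle reached 2-fold for these members, and that of Jund because the brightest probe set of Jund varied little. Each runs from 250 bases before the annotated start to 50 after it, 5' to 3' on the gene's own strand, and capitals mark motif matches on either strand.
Fosl1, chr1:212183635-212183934, plus strand: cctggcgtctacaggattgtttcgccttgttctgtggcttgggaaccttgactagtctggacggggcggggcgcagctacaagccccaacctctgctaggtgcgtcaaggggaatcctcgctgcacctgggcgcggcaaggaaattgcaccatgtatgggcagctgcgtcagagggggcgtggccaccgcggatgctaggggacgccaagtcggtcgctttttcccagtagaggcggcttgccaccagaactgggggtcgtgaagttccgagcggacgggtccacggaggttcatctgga
Fosl2, chr6:30039220-30039519, minus strand: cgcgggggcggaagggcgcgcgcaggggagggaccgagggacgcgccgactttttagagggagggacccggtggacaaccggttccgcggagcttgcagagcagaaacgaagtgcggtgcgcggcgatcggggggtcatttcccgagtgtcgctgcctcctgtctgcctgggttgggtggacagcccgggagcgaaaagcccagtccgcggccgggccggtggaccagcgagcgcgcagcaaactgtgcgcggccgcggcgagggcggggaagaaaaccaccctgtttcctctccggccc
Junb, chr19:40080876-40081175, plus strand: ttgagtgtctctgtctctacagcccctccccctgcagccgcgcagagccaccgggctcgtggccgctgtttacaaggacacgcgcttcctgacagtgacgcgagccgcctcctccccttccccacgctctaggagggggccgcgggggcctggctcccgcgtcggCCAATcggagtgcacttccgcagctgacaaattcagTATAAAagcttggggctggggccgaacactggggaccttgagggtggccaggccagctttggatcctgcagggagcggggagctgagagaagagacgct
Jund, chr16:18769722-18770021, minus strand: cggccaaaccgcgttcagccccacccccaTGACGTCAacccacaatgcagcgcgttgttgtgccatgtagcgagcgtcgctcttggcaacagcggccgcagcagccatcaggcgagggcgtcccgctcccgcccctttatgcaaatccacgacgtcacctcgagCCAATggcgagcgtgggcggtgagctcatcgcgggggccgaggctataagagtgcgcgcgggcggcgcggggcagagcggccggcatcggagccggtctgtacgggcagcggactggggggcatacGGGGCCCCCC
The motifs searched were the AP-1 site TGAGTCA, the cyclic AMP response element TGACGTCA, the CArG box bound by serum response factor, the kappaB site, TATAAA and CCAAT. They occur in 4.63%, 1.83%, 1.64%, 5.02%, 14.2% and 37.5% of the 33469 promoters in the table. TGACGTCA stands in the Jund promoter at position -221, where -1 is the last base before the start, beside CCAAT at -86 and a kappaB match at 41, made only of G and C. Junb has TATAAA at -49 and CCAAT at -85. In the windows of Fosl1 and Fosl2 none of these motifs was found, and no motif overlapped another in the 4 windows.

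Fosl1 encodes Fra-1, a FOS protein without the C-terminal activation domain of Fos. Its intensity was 733 with PDGF-DD and 75.9 with its vehicle, and 155 with IL-1b against 25.7, below the floor, with the IL-1b vehicle. PDGF-DD gave the highest value, 4.73-fold above the next, IL-1b, and both factor arrays lay above both vehicle arrays. The fold over the factor's own vehicle was 9.67 for PDGF-DD and at least 5.52 for IL-1b. Ranked by log2 ratio, Fosl1 was number 2 of 10141 genes with PDGF-DD. Against the other vehicle array it was at least 26.1-fold higher with PDGF-DD and 2.04-fold higher with IL-1b, since the vehicles themselves were at least 2.70-fold apart, PDGF-DD vehicle over IL-1b vehicle.

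Fos, the classical immediate early partner of Jun, differed less. Its brighter probe set read 131 with IL-1b and 72.9 with the IL-1b vehicle, and 134 with PDGF-DD and 65.9 with the PDGF-DD vehicle. The factor arrays read alike, above both vehicle arrays, which also read alike. The log2 ratio was 0.85 for IL-1b and 1.03 for PDGF-DD, on either side of the 2-fold limit of 1. Exchanging the vehicles gave 1.99-fold for IL-1b and 1.85-fold for PDGF-DD. The second Fos probe set was above the floor only with IL-1b, at 30.4, and gives no usable fold.

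Fosl2, which encodes the related Fra-2, was highest with IL-1b. The intensities were 179 with IL-1b and 71.7 with its vehicle, and 72.3 with PDGF-DD and 96.4 with its vehicle. The IL-1b array was 1.86-fold above the next, and the other 3 arrays lay closer together. IL-1b over its vehicle was 2.50-fold, and the log2 ratio of PDGF-DD was -0.42. A second probe set gave a log2 ratio of 0.57 with IL-1b, which is 1.48-fold, and -0.09 with PDGF-DD. Fosb, a FOS protein known for its lasting splice form in neurons, read 18.0, 27.2, 15.2 and 10.4 on the IL-1b, IL-1b vehicle, PDGF-DD and PDGF-DD vehicle arrays, all below the floor.

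Jun encodes the founding JUN protein, which can bind DNA as a homodimer and acts on its own promoter. Its ratios with the factors had opposite signs. The brightest of its 3 probe sets read 172 with IL-1b and 364 with the IL-1b vehicle, and 994 with PDGF-DD and 220 with the PDGF-DD vehicle. PDGF-DD gave the highest value, 2.74-fold above the next, and IL-1b the lowest. Jun was 4.53-fold higher with PDGF-DD and 2.11-fold lower with IL-1b, each over its own vehicle, and ranked number 29 from the top of 10141 genes and number 514 from the bottom of 10678. The other probe sets had the same signs and smaller sizes: 3.09-fold and 2.40-fold higher with PDGF-DD, and 1.39-fold and 1.53-fold lower with IL-1b. One of these shares its source sequence with the brightest probe set, so they are not independent readings. Against the other vehicle array Jun was 2.74-fold higher with PDGF-DD, and its log2 ratio with IL-1b was -0.35, which is under 2-fold.

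Junb, a JUN protein that often counteracts Jun, read 672 with IL-1b and 208 with the IL-1b vehicle, and 482 with PDGF-DD and 575 with the PDGF-DD vehicle. The IL-1b vehicle array was low and the other 3 arrays lay close together, within 482 to 672. IL-1b over its own vehicle was 3.22-fold, but IL-1b over the PDGF-DD vehicle was 1.17-fold. With PDGF-DD the log2 ratio was -0.25 over its own vehicle and 1.21 over the IL-1b vehicle. The value for Junb in either comparison thus depended on which vehicle array was used, and the vehicles were 2.76-fold apart.

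Jund, the JUN protein that resting cells express steadily, had the narrowest range among the probe sets that stand for the measured members. This brightest probe set read 2514 with IL-1b and 2269 with its vehicle, and 2289 with PDGF-DD and 2362 with its vehicle, a range of 1.11-fold over the 4 arrays. A second, dimmer probe set read 214 with IL-1b and 189 with its vehicle, and 122 with PDGF-DD and 123 with its vehicle, a range of 1.75-fold. It gave log2 ratios of 0.18 with IL-1b and -0.02 with PDGF-DD, beside 0.15 and -0.05 for the brightest, and -0.61 between PDGF-DD vehicle and IL-1b vehicle. Atf3, a stress-induced factor that pairs with JUN proteins, read 6.13 with IL-1b and 2.36 with its vehicle, and 28.3 with PDGF-DD and 14.9 with its vehicle. Only the PDGF-DD reading exceeded the floor, by less than 1 unit of intensity, so no change of Atf3 could be measured on these arrays.

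**Figure D1:**
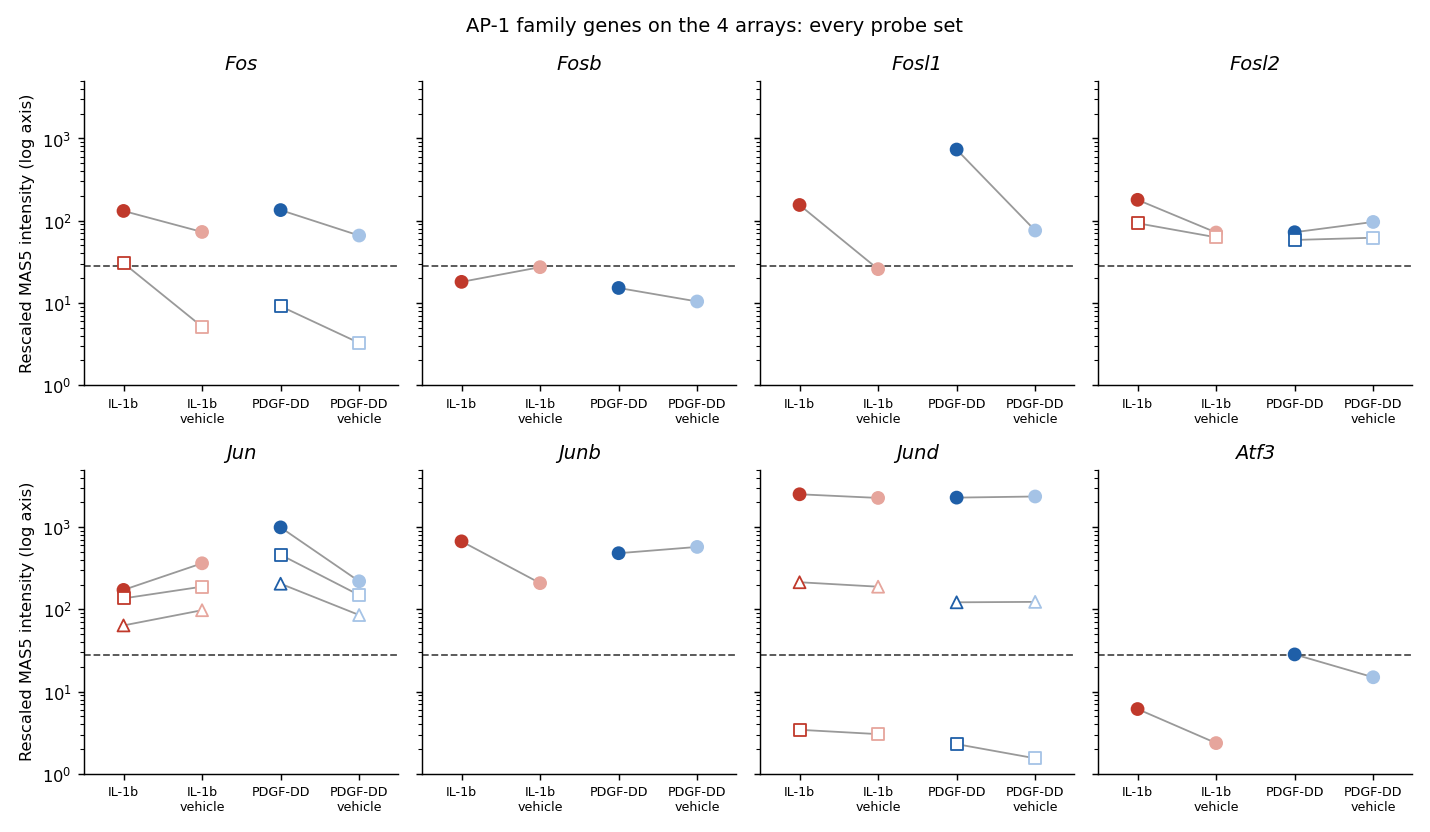
Rescaled MAS5 intensity (log axis) of every probe set of the 8 AP-1 genes on the IL-1b, IL-1b vehicle, PDGF-DD and PDGF-DD vehicle arrays, 1 point per array. Filled circles are the probe set that stands for the gene, open symbols its other probe sets, grey lines join a factor to its vehicle and the dashed line is the floor of 28.1; levels of different probe sets cannot be compared. Fosl1 and Jun peak with PDGF-DD at 733 and 994, and Jund stays between 2269 and 2514.

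Counted over the family, IL-1b over its vehicle had 3 of 6 measured members called higher (Fosl1, Fosl2 and Junb) and 1 lower (Jun). Fosl1 passed the floor there by its IL-1b reading alone, so its place in the count follows in part from that reading. Over all genes measured in that comparison 6.15% were higher and 5.42% lower by that size. The median log2 ratio was 1.09 for the 6 members and 0.02 for all 10678 genes. With PDGF-DD 3 of 6 members were higher (Fosl1, Jun and Fos) and 0 lower, beside 4.24% and 4.67% of all genes. Atf3 passed the floor there by its PDGF-DD reading alone, by less than 1 unit of intensity, and was left out of this count after its values were seen. Fosl1 was kept in the IL-1b count although it also passed by 1 reading, so the members were not treated evenly. The median log2 ratio was 0.49 for these 6 members, of which Fosl2, Junb and Jund had values from -0.42 to -0.05, and 0.01 for all 10141 genes. With Atf3 counted, the median of 7 members was 0.01, so the value of 0.49 depended on leaving Atf3 out. Fosl1 was called higher with both factors. The members are 8 genes chosen with earlier results of these arrays known, and these counts describe them only.

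The vehicle arrays, which received no factor, give the background measured the same way. Taken as PDGF-DD vehicle over IL-1b vehicle, 2 of 6 measured members (Fosl1 and Junb) exceeded 2-fold upwards and 0 downwards, beside 5.8% and 4.67% of 10388 genes. Fosl1 was under the floor with the IL-1b vehicle, so every count over that vehicle holds it by its other reading alone. Jun had a log2 ratio of -0.73, Fosl2 0.43, Fos -0.14 and Jund 0.06. The median was 0.24 for the 6 members and -0.05 for all genes. The vehicles differ in composition, and their difference cannot be told apart from one between cultures or arrays. With the vehicles exchanged, IL-1b had 1 member called higher, Fosl1 (5.44% of all genes), and 0 lower (4.97%), and with PDGF-DD 3 were higher (9.65%), namely Fosl1, Jun and Junb, and 0 lower (10.3%). Fosl1 therefore met the 2-fold size against both vehicles with each factor, and Jun against both with PDGF-DD. The median log2 ratio of the 6 members, Atf3 left out, was 0.56 for IL-1b and 1.047 for PDGF-DD with the vehicles exchanged. Over their own vehicles it was 1.09 and 0.49. With Atf3 counted, the PDGF-DD median was 0.88 with the vehicles exchanged and 0.01 over its own vehicle. Which factor had the higher median thus depended on the vehicle array used.

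**Figure D2:**
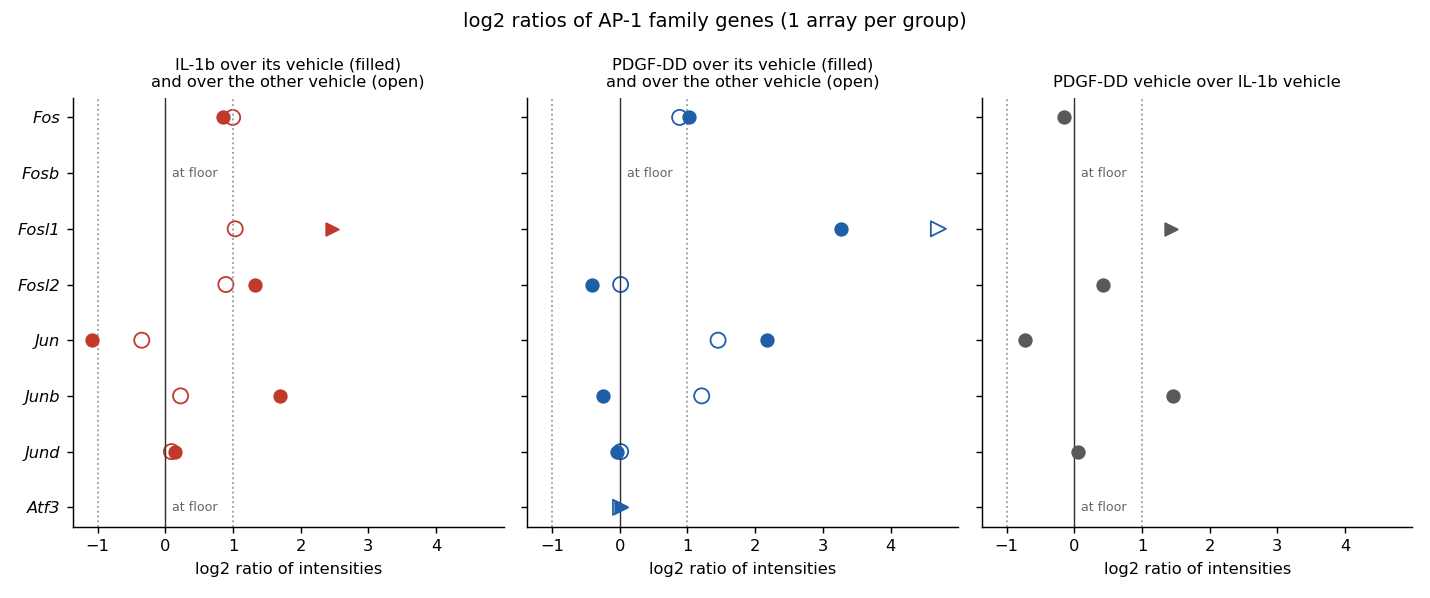
log2 ratio of intensities of each AP-1 gene for IL-1b (left), PDGF-DD (middle) and PDGF-DD vehicle over IL-1b vehicle (right), from 1 array per group. Filled symbols are over the factor's own vehicle, open symbols over the other vehicle array, triangles are lower bounds against the floor and dotted lines mark 2-fold. Fosl1 lies to the right in every comparison, Jun lies left with IL-1b (-1.08) and right with PDGF-DD (2.18), and Junb changes side with PDGF-DD when the vehicle is exchanged.

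The factors were set against each other by subtracting the log2 ratio of PDGF-DD from that of IL-1b, each over its own vehicle. Jun had the widest gap, -3.26, which ranked number 12 from the bottom of 10884 genes. Junb and Fosl2 differed the other way, by 1.94 and 1.74. Of 6 members, Atf3 again left out, 2 exceeded 2-fold towards IL-1b and 1 towards PDGF-DD, beside 8.3% and 6.7% of all genes. Fosl1 had a gap of -0.81, in which the IL-1b term is a lower bound. Fos and Jund were close, at -0.18 and 0.19. The gap for Junb contains the low IL-1b vehicle reading.

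Other basic leucine zipper factors, some of which pair with AP-1 proteins, were read next from a list of 24 genes, 22 of them on the array. With IL-1b 4 of 19 measured genes were called higher and 0 lower (median log2 ratio 0.13), beside 6.15% and 5.42% of all genes. The largest was Maff, a small MAF protein, at 451 against 44.3 (10.2-fold), followed by the inflammatory regulators Cebpd (log2 ratio 2.81) and Cebpb (4.26-fold). With the PDGF-DD vehicle in place of its own they gave 1.89, 0.02 and 0.61 on the log2 scale, so that of Maff alone exceeded 2-fold. Other probe sets of Cebpd gave 2.90 and 0.65 with IL-1b over its own vehicle. With PDGF-DD 0 of 18 were higher and 2 lower (median 0.09), beside 4.24% and 4.67% of all genes: Maf, at 235 against 660 (2.81-fold lower), and Cebpb, at 1554 against 3113, just past 2-fold. Cebpd had a log2 ratio of -0.83 there. Over the IL-1b vehicle instead, PDGF-DD gave -2.37 for Maf, but 0.47 for Cebpb and 1.96 for Cebpd, the opposite sign. With the vehicles exchanged, IL-1b had 2 of 19 higher and 0 lower, beside 5.44% and 4.97% of all genes. PDGF-DD had 2 of 18 higher and 3 lower, beside 9.65% and 10.3%. Other probe sets of Maf gave -0.28 and -1.65 over the PDGF-DD vehicle. Jdp2, a repressor that pairs with Jun, read 100.5 with IL-1b and 104.7 with its vehicle, and 44.2 with PDGF-DD and 68.4 with its vehicle. Jdp2 falls outside the rule for named genes and was added after its values were seen.

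Kinases and regulators upstream of AP-1 mostly lay under 2-fold at the mRNA level. With IL-1b 2 of 20 measured genes were called higher and 0 lower (median -0.17), beside 6.15% and 5.42% of all genes. They were Elk3, a cofactor of serum response factor (2.18-fold, and log2 ratios from 1.02 to 1.65 by its other probe sets), and Map2k3, a kinase that activates p38 (2.07-fold). Map3k1, a kinase of the JNK pathway, had a log2 ratio of -0.85, and -0.41 by its other probe set. With PDGF-DD 0 of 19 were higher and 1 lower (median 0.07, beside 4.24% and 4.67% of all genes), the kinase Rps6ka5 (2.06-fold), whose other probe set gave -0.61. It had a log2 ratio of -0.40 when PDGF-DD was set over the IL-1b vehicle. Srf, the factor that drives Fos and also contractile genes, had a log2 ratio of -0.67, and Mapk9, which encodes the Jun kinase JNK2, -0.58. Another probe set gave -0.21 for Srf and -0.45 for Mapk9. Over the IL-1b vehicle, PDGF-DD gave -0.77 for Srf and -0.12 for Mapk9. Elk3 and Map2k3 had log2 ratios of 0.37 and 0.19 when IL-1b was set over the PDGF-DD vehicle. In that comparison 0 of 19 were higher and 1 lower, beside 5.44% and 4.97% of all genes. PDGF-DD over the IL-1b vehicle had 2 of 20 higher and 0 lower, beside 9.65% and 10.3%.

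Immediate early genes outside AP-1 also went both ways. With IL-1b 4 of 19 measured genes were called higher and 1 lower (median 0.24), beside 6.15% and 5.42% of all genes. Klf4, a repressor of contractile genes, was at least 31.8-fold higher, Egr2 at least 3.75-fold and Klf2 2.80-fold. Klf4 and Egr2 passed the floor there by their IL-1b reading alone, with 27.6 and 27.9 on the IL-1b vehicle array. With the PDGF-DD vehicle in place of its own, the log2 ratio was 1.01 for Klf4, 1.85 for Egr2 and -0.24 for Klf2, the opposite sign. Other probe sets of Klf2 gave 0.20, 1.52 and 0.54 with IL-1b over its own vehicle. The other probe set of Egr2 was at or below the floor on every array and gave no ratio. With PDGF-DD 4 of 19 were higher and 1 lower (median 0.31), beside 4.24% and 4.67% of all genes. Egr1, a zinc finger factor induced through the same kinases as Fos, read 1418 against 344 with the PDGF-DD vehicle (4.13-fold higher), and Klf4 was 2.89-fold higher. The gene that was lower was Dusp1, a phosphatase that inactivates p38 and JNK, at 757 with PDGF-DD and 3242 with its vehicle (4.28-fold lower), and at 828 with IL-1b and 2092 with its vehicle. Its log2 ratios were -2.10 and -1.34, and -2.36 and -0.98 by its other probe set. With the vehicles exchanged, PDGF-DD gave -1.47 for Dusp1, 1.03 for Egr1 and 5.51, a lower bound, for Klf4, while IL-1b gave -1.97 for Dusp1. In the exchanged comparisons PDGF-DD had 7 of 19 higher and 1 lower, beside 9.65% and 10.3% of all genes. IL-1b had 3 of 19 higher and 1 lower, beside 5.44% and 4.97%.

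Among genes described as AP-1 targets in other systems, IL-1b gave 10 of 18 called higher and 2 lower (median 1.68), beside 6.15% and 5.42% of all genes. Mmp3, Mmp9, Mmp13 and Il6 passed the floor there by their IL-1b reading alone, and all but Mmp9 are among those called. The Mmp genes named were not measured with PDGF-DD, so the counts and medians of the factors cover different genes. Il6, an inflammatory cytokine, was at least 130-fold higher, Cd44, the hyaluronan receptor, 21.0-fold and Mmp3, a matrix protease, at least 19.5-fold. Against the PDGF-DD vehicle the list had 7 of 18 higher and 1 lower (5.44% and 4.97% of all genes), with a median of 0.63. There the log2 ratio was 3.03 for Il6, 1.60 for Cd44 and at least 4.28 for Mmp3. With PDGF-DD 7 of 15 were higher and 1 lower (median 0.70), beside 4.24% and 4.67% of all genes. Hmga1, a chromatin protein, was 6.79-fold higher at 2117 against 312, cyclin D1 (Ccnd1) had a log2 ratio of 1.81 and F3, tissue factor, was 3.86-fold lower. Over the IL-1b vehicle these gave 5.44, 4.35 and -1.03 on the log2 scale. The list there had 8 of 15 higher and 2 lower (9.65% and 10.3% of all genes), with a median of 1.42. Which factor had the higher list median thus depended on the vehicle array used. Hbegf, a growth factor named here after its values were seen, had the signs of Jun: 161 with IL-1b and 379 with its vehicle, and 506 with PDGF-DD and 189 with its vehicle. With the vehicles exchanged its log2 ratios were -0.24 for IL-1b and 0.42 for PDGF-DD, both under 2-fold. Between PDGF-DD vehicle and IL-1b vehicle 6 of 15 targets were higher and 1 lower (median 0.92), beside 5.8% and 4.67% of all genes. Most of these genes also answer to other factors, such as NF-kappaB, and the part of AP-1 in their values was not tested.

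**Figure D3:**
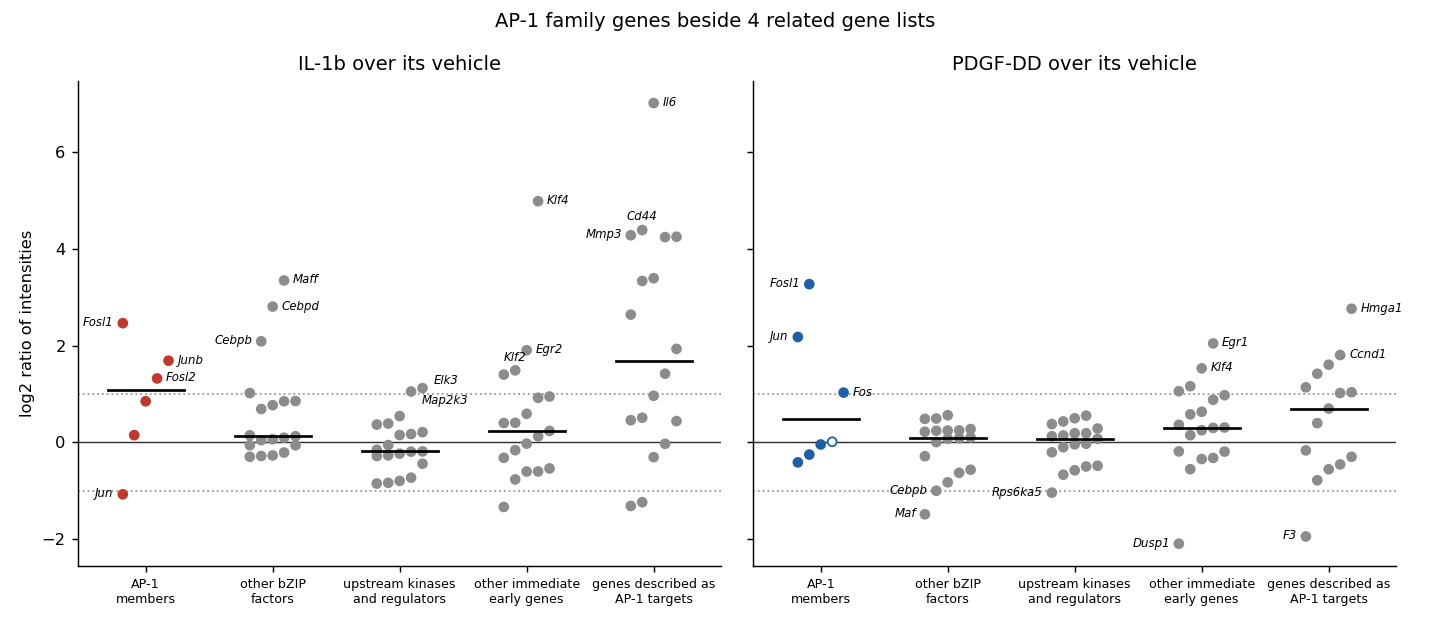
log2 ratio of intensities for IL-1b (left) and PDGF-DD (right) over their vehicles, 1 point per measured gene, for the AP-1 members (coloured) and 4 related gene lists (grey). Black bars are medians and dotted lines mark 2-fold; the open circle is Atf3, which lies at the floor and is left out of the median. The highest members with PDGF-DD are Fosl1 (3.27) and Jun (2.18).

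The genes with the pattern most like Fosl1 and Jun, the members with the widest range over the arrays, were found by the Euclidean distance between log2 intensities centred on each gene's mean, over 4 arrays and 10884 genes. Nearest to Fosl1 were Dusp6, a phosphatase that inactivates ERK (distance 0.72), Ano1, a calcium-activated chloride channel (0.81), Id1, an inhibitor of basic helix-loop-helix factors (1.08), Arhgap22 (1.13) and C9h6orf141 (1.13). Dusp6 read 657 with IL-1b and 109 with its vehicle, and 1624 with PDGF-DD and 258 with its vehicle, the same order of arrays as Fosl1. Nearest to Jun were Kitlg, the ligand of the receptor Kit (0.61), Bend6 (0.63), Eps8, an actin regulator (0.66), Dock4, an activator of small GTPases (0.67), and E2f1, a factor of DNA synthesis genes (0.68). Kitlg read 170 with IL-1b and 390 with its vehicle, and 645 with PDGF-DD and 237 with its vehicle. With 4 arrays many genes can share such an order, so the distances are a description.

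**Figure D4:**
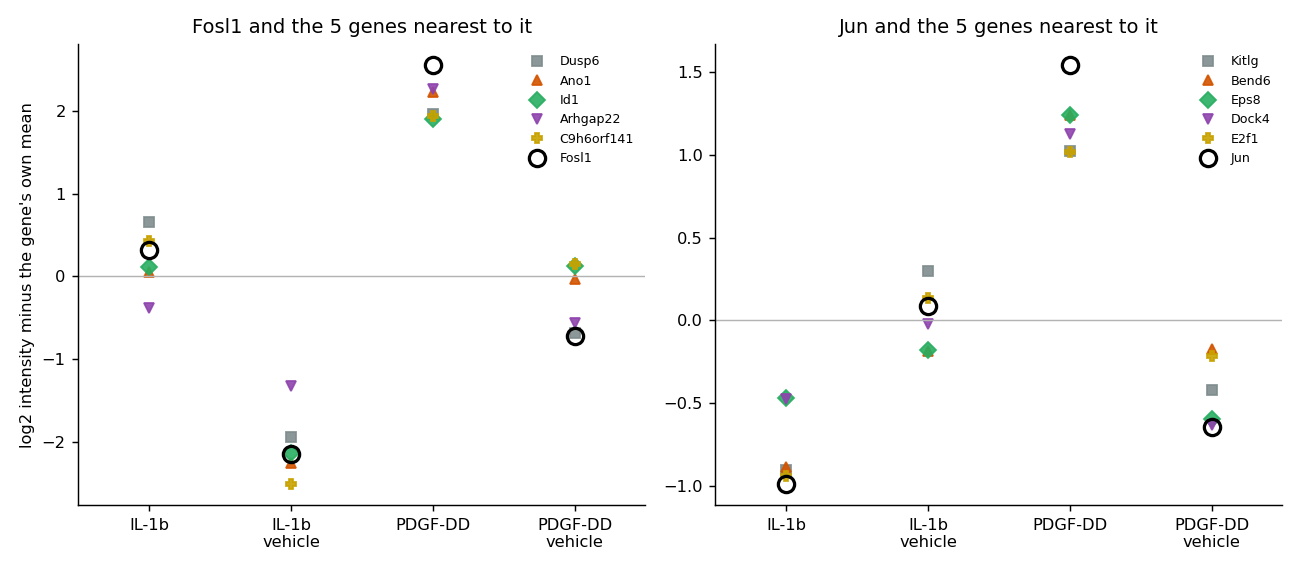
log2 intensity minus each gene's own mean over the 4 arrays for Fosl1 (left, open black circles) and Jun (right, open black circles) with the 5 genes nearest to each, 1 point per array. In both panels the PDGF-DD array is the highest; the lowest is the IL-1b vehicle array for Fosl1 and its 5 neighbours and the IL-1b array for Jun itself, whereas Eps8 and Dock4 are lowest on the PDGF-DD vehicle array.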

How the data were processed

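The arrays were Affymetrix rat expression arrays hybridised with biotin-labelled cRNA from Trizol-extracted total RNA, per the labels' protocols. The deposited values are linear intensities made by the authors with MAS5, per the submitters' processing notes; for its version, scaling target and detection calls, nothing is given in the sources used here. The arrays share a median of 53.3. Arrays were rescaled to a common mean after trimming 2% at each end (factors 1.01 for IL-1b, 1.03 for its vehicle, 0.951 for PDGF-DD and 1.01 for its vehicle), and values under the 40th percentile of all intensities were set to that floor. Probe sets were named from the platform annotation of 2016, with 20826 naming 1 gene and 436 several; 9831 were not listed and name none. Symbols of all 8 members matched their RefSeq gene identifier. A gene was read from its brightest probe set by mean log2 value. Ratios were computed in Python 3.11.15 with pandas 2.3.3, and the steps were tested on simulated data. With 1 array per group no test was run. Genes named are all members, up to 3 of each list with the largest ratio per factor, and the 5 nearest to the 2 widest-ranging members. Members, lists and rules were chosen with earlier results of these data known. Alternatives changed scaling, floor, probe set, threshold and vehicle.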

Additional observations from a re-analysis of the deposited data

Results flagged for a closer look

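Members whose log2 ratios had opposite signs with the 2 factors, each over its own vehicle, were Jun, Junb, Fosl2 and Jund. The difference, IL-1b minus PDGF-DD, was -3.26 for Jun, 1.94 for Junb, 1.74 for Fosl2 and 0.19 for Jund. These differences were not tested, since each ratio comes from 1 array per group. For Jun both ratios exceeded 2-fold with its brightest probe set. For Jund the ratios were 1.11-fold higher with IL-1b and 1.03-fold lower with PDGF-DD. Without rescaling both log2 ratios of Jund were positive, 0.17 and 0.04, so its opposite signs depended on the scaling.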

How the results depend on the processing

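With 1 array per group, sensitivity was read from other settings only. No paired analysis was possible because each group is 1 array. Omitting the rescaling or using quantiles left the called members at 4 with IL-1b and 3 with PDGF-DD. There were 2 between the vehicles and 3 between the factors. Dividing by the median repeated the values without rescaling, since the deposited arrays share a median. It is therefore no separate check, and its values are counted again among the 183 below. With the floor at the 20th percentile, 4 members were called with IL-1b and 3 with PDGF-DD. Between the vehicles 3 of 8 were called there, and between the factors 4 of 8, beside 15.7% and 22.1% of all genes. Atf3 with PDGF-DD moved to a log2 ratio of 0.92, for which its vehicle reading lies under the main floor. With the floor at the 60th percentile, IL-1b called 2 members and the vehicles 1. Fewer low readings are measured there, and the log2 ratio of Fosl1 with IL-1b became 0.56. Averaging all probe sets of a gene, or taking the dimmest, gave 2 with IL-1b, since Fosl2 (0.94 and 0.57) and Jun (-0.72 and -0.62) fell under 2-fold. A 3-fold limit left 2 with IL-1b and 0 between the vehicles. With PDGF-DD the count was 2 at the 60th-percentile floor, with averaged or dimmest probe sets and at the 3-fold limit. Fos was no longer called in these settings. Between the factors the count was 2 with the dimmest probe sets, where the gap of Fosl2 was 0.66. It stayed at 3 with the 60th-percentile floor, but with other members: the gap of Fosl2 fell to 0.77 and that of Fosl1 became -2.24. There 1 member lay towards IL-1b and 2 towards PDGF-DD. Leaving out Atf3, chosen after seeing the data, kept 3 with PDGF-DD and 3 between the factors. That outcome was fixed in advance, because Atf3 was not called in either. The median log2 ratio of the members with PDGF-DD, however, went from 0.01 to 0.49. With the vehicles exchanged IL-1b called 1, and Junb with PDGF-DD turned to 1.21. Of 183 member values recomputed, 165 moved by under 1.5-fold, 17 moved by more and 1 reversed. Reversed means a change of sign in which 1 of the values was at least 2-fold. Smaller changes of sign are counted by their size, such as Jund with PDGF-DD, from -0.05 to 0.04 without rescaling. Of 89 recomputed values that were called in the main setting, 75 stayed called. Fosl1 with PDGF-DD stayed between 2.80 and 3.36 and Jun between 1.27 and 2.27 over all settings with its own vehicle, while Fos with PDGF-DD ranged from 0.36 to 1.12. Without detection calls, the floor limits what can be said of Fosb, Atf3 and the vehicle reading of Fosl1.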
